A study of Rattus norvegicus with 6 samples.

Results

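Cholesterol and fatty acid synthesis was described here by 30 genes, chosen by name for their place in these pathways, and measured in hippocampi of old rats that had or had not been given sevoflurane, an inhaled anesthetic. A gene entered through the probe sets that name it alone in the platform's annotation, a probe set being the group of probes that measures 1 transcript cluster, and the probe set with the highest mean over the 6 arrays stood for the gene. By this rule 29 of the 30 genes were measured, among 22093 genes with such a probe set and 68842 probe sets in all, and the remaining one, Hmgcs1, was not analysed here. The 29 comprised 17 enzymes of sterol synthesis, 6 enzymes of fatty acid synthesis, and 6 regulators including the sterol carrier Stard4. The sevoflurane group was 3 male Sprague-Dawley rats of 18 months that breathed 2.5% sevoflurane for 4 h, carried by 100% oxygen, and the control group was 3 such rats in 100% oxygen alone for 4 h. All were decapitated 3 h later, and RNA of the dissected hippocampus was hybridised to 1 Clariom D Pico array per rat.

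Cholesterol is made from acetyl-CoA by way of mevalonate, the isoprenoid diphosphates, squalene and lanosterol, while fatty acid synthesis draws on the same acetyl-CoA. Both sets of genes are switched on by the SREBP transcription factors, which Scap escorts from the endoplasmic reticulum when sterols are low and which the Insig proteins hold back when sterols are high. Because plasma cholesterol does not cross the blood-brain barrier, the brain makes its own, for myelin in oligodendrocytes and, in adults, to a large extent in astrocytes.

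None of the members passed the test between the groups. With limma, 0 of the 29 had an unadjusted p under 0.05 in either direction, where 1.1% of all genes passed as higher and 0.222% as lower after sevoflurane. After Benjamini-Hochberg adjustment 0 members and 0 of all 68842 probe sets passed. The methods' one-way ANOVA gave 2 members at an unadjusted p under 0.05 (Sc5d and Scap, both higher) and 0 after adjustment, where 2.49% of all genes passed as higher and 0.647% as lower. Array weights, which let an array that fits poorly count less, gave 4 (Msmo1, Nsdhl and Sc5d higher and Srebf1 lower) and 0 after adjustment. In that fit 5.65% of all genes passed as higher and 4.46% as lower, and 23 of the 68842 probe sets passed after adjustment. The weights were 0.17, 3.25 and 0.84 on the sevoflurane arrays and 0.73, 0.95 and 3.04 on the control arrays. Sevoflurane replicate 2 and control replicate 3 thus counted most. The log2 fold changes of the members lay between -0.15, for Srebf1, and 0.17, for Mvk, and 17 of the 29 were positive, where 62.5% of all genes were. The median was 0.05 over the sterol enzymes, 0.05 over the fatty acid enzymes and -0.05 over the regulators, against 0.02 over all genes. Each 95% confidence interval stayed inside a 1.5-fold change in either direction, as it did for 94% of all genes. The bounds farthest from 0 were 0.45 for Mvk, a 1.37-fold change, and -0.43 for Srebf1, a 1.35-fold change, and the half-width of the intervals was between 0.22 and 0.32. In this fit a difference smaller than its half-width could not pass, while the ANOVA and the array weights, which estimate the spread in another way, passed some smaller ones. The tissue was measured in bulk, so a change in the number of cells of a type and a change of RNA per cell cannot be told apart.

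**Figure D1:**
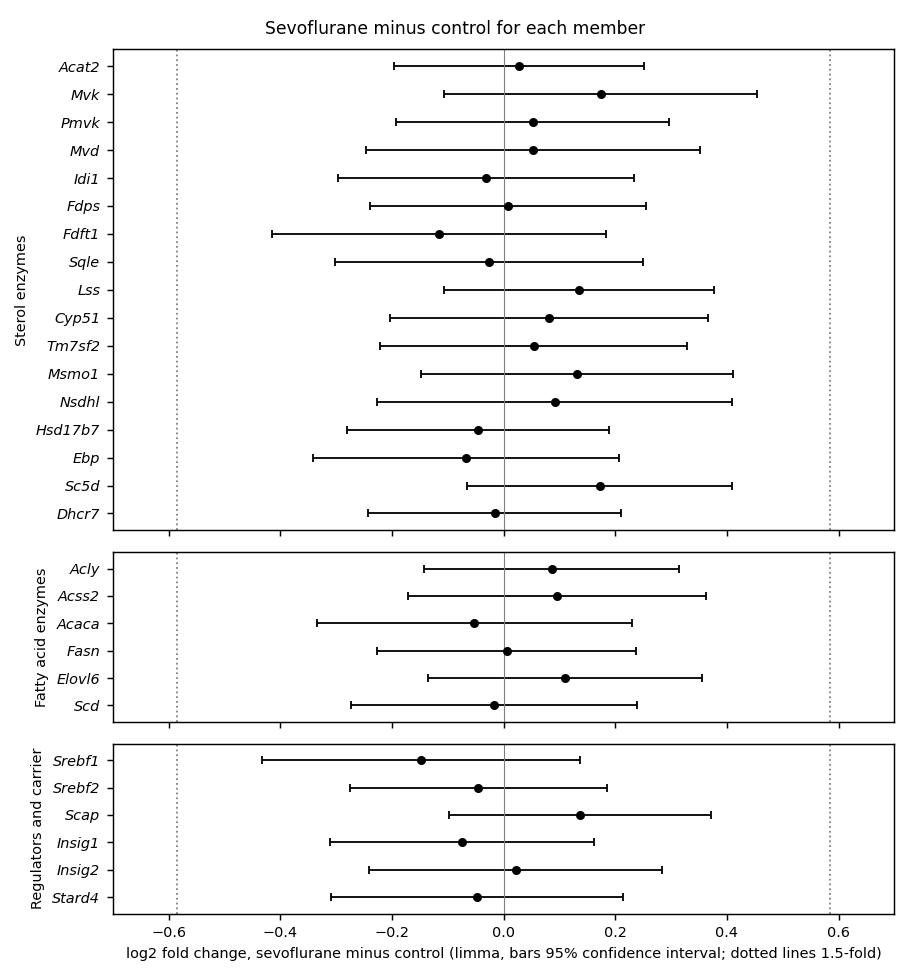
Log2 fold change of each member, sevoflurane minus control, with its 95% confidence interval from limma (3 arrays a group). All 29 intervals include 0 and lie inside the dotted lines at 1.5-fold.

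One array stood apart. Over all probe sets sevoflurane replicate 1 correlated with the others at a mean r of 0.986, against 0.991 to 0.993 for the other 5 arrays. Values without it are therefore given for many of the members. Its median log2 signal was 5.76, against 5.52 to 5.66 on the other arrays, and its SD was 1.85, against 1.93 to 2.03, so the deposited values were not on one common scale. The array's background probe sets had medians between 3.46 and 3.96, and every member lay above them on all 6 arrays. Hippocampal neuron markers such as Prox1 and Wfs1 were above them too, and 0 of 11 had an unadjusted p under 0.05 from limma, the call used for the markers that follow. By this call 1.1% of all genes were higher and 0.222% lower. Markers of the neighbouring thalamus and habenula were higher in 8 of 20 genes and lower in 0, and relative to the mean of the controls the list averaged 0.36, 0.83 and 0.14 on the sevoflurane arrays, against -0.05, 0.04 and 0.01 on the control arrays. Of 15 oligodendrocyte markers 3 were higher (Mag, Aspa and Olig1) and 1 was lower (Opalin), and of 10 astrocyte markers 1 was higher (Agt). Aspa and Olig1 overlapped between the groups, with sevoflurane replicate 1 below the highest control array in both, while Mag, Opalin and Agt did not overlap. None of 8 microglia, 8 endothelium or 7 choroid plexus markers passed, while the microglia mean was 0.72 above the control mean on sevoflurane replicate 3 and between -0.04 and 0.05 on the other 5 arrays. The endothelium mean was 0.19, -0.18 and -0.10 on the sevoflurane arrays, against -0.02, 0.02 and 0.00 on the control arrays. The choroid plexus mean was 0.20, 0.15 and -0.16, against 0.21, -0.14 and -0.08. The part of these tissue and cell markers in the members' values was not tested.

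The promoters of the members were read for 3 short sequences. The letters CCAAT, on either strand, make the core of the site of NF-Y, a factor that works beside SREBP at sterol gene promoters. RefSeq promoters of the rat assembly GRCr8 were read from 250 bases before to 50 bases after the start of the gene. CCAAT occurred in 12 of the 15 sterol enzyme genes with an entry. It occurred in 2 of 3 fatty acid enzyme genes and in 4 of 5 regulator genes. These shares stand beside 37.5% of 33469 promoters of all genes. Members were counted once per gene, while the 33469 promoters belong to 27457 genes. These promoters were not matched to those of the members for base composition or for expression of their genes, so the shares do not show a trait particular to the members. The 15 include Hmgcs1, whose signal was not analysed. The sterol regulatory element in the form TCACNCCAC occurred in 0 of these members and in 1.12% of all promoters, and the E-box CACGTG in Sc5d, Scap and Insig1 and in 6.42% of all promoters. The E-box reads the same on both strands. A match describes the letters of the window and not a bound site, and no match says only that these letters are absent from it. The 250 bases before the start are printed for Sc5d, Lss and Scap, whose sevoflurane arrays all lay above the control arrays. They are also printed for Nsdhl, whose window had 5 matches. Acly, also above the controls on every sevoflurane array, and Mvk, also with 5 matches, are not printed. Capitals mark CCAAT or its complement ATTGG, which stands 87 bases before the start in Sc5d, 82 bases in Lss, between 65 and 208 bases in Nsdhl, and nowhere in Scap.
Sc5d, chr8:51538278-51538527, minus strand: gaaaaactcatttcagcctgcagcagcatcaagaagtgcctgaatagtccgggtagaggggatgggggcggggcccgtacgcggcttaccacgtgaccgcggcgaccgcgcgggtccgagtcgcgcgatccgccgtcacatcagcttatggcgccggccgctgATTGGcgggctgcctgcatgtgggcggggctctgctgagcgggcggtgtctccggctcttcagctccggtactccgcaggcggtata
Lss, chr20:12118231-12118480, minus strand: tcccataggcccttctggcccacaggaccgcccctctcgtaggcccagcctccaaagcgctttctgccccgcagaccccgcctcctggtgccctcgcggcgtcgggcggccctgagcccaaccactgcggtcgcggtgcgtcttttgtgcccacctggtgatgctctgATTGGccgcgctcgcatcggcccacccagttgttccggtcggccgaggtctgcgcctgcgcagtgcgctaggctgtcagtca
Nsdhl, chrX:155817110-155817359, plus strand: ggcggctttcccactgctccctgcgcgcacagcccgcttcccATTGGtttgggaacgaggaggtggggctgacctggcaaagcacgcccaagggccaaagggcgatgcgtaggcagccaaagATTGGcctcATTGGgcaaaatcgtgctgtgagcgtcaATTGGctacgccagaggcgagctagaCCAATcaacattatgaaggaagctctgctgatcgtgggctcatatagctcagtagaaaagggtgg
Scap, chr8:119184188-119184437, plus strand: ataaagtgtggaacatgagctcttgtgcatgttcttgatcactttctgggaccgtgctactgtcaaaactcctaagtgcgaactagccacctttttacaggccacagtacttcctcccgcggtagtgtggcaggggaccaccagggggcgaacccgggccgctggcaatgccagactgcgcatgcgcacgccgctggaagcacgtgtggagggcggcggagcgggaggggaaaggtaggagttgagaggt

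Among the mevalonate and isoprenoid steps, Acat2, the cytosolic thiolase that joins acetyl-CoA units, varied by no more than 0.06 on the log2 scale over the 6 arrays, with 7.55, 7.53 and 7.57 on the sevoflurane arrays and 7.54, 7.51 and 7.53 on the control arrays. Mevalonate kinase, Mvk, had the largest log2 fold change of the members, 0.17 with a standard error of 0.123 (unadjusted p = 0.192 from limma). Its log2 signal was 7.40, 7.18 and 7.14 after sevoflurane and 6.94, 7.19 and 7.08 in controls. Sevoflurane replicate 1 alone lay above the controls, and without it the log2 fold change of Mvk was 0.09. Phosphomevalonate kinase, Pmvk, and the decarboxylase Mvd had log2 fold changes of 0.05 each, the isopentenyl diphosphate isomerase Idi1 was at -0.03 and farnesyl diphosphate synthase, Fdps, at 0.01. Without sevoflurane replicate 1 the values were 0.01 for Pmvk, -0.06 for Mvd, 0.04 for Idi1 and -0.001 for Fdps.

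The next steps lead from farnesyl diphosphate to lanosterol. Fdft1, the squalene synthase that commits the pathway to sterols, was at 8.42, 8.71 and 8.84 on the sevoflurane arrays and at 8.80, 8.75 and 8.77 on the control arrays. The first of these arrays was the lowest of the 6, and the log2 fold change of -0.12 became 0.00 without it. Sqle, the squalene monooxygenase and a rate-limiting step of the later pathway, was at 7.997, 8.30 and 8.29 after sevoflurane and at 8.28, 8.19 and 8.20 in controls. Its log2 fold change was -0.03 (standard error 0.121) with all arrays and 0.07 without sevoflurane replicate 1. Lss, which closes the ring system to lanosterol, did not overlap between the groups. Its probe set read 8.24, 8.19 and 8.04 in the sevoflurane group and 8.01, 8.03 and 8.03 in the control group, a log2 fold change of 0.13 with a standard error of 0.106 (unadjusted p = 0.237 from limma). Without sevoflurane replicate 1, the highest of the 6 arrays, the log2 fold change was 0.09. A second Lss probe set did not overlap either, at 8.16, 8.16 and 8.05 after sevoflurane and 8.02, 8.02 and 8.04 in controls. On both, sevoflurane replicate 3 was only just above the highest control array.

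Among the enzymes that turn lanosterol into cholesterol, Sc5d, the sterol desaturase of a late step, showed the smallest unadjusted p of all members. Its log2 signal was 9.07, 9.19 and 9.20 on the sevoflurane arrays and 8.96, 8.95 and 9.04 on the control arrays. The groups did not overlap, and the log2 fold change was 0.17 with a standard error of 0.104 (unadjusted p = 0.134 and adjusted p = 1 from limma, exact permutation p = 0.1, two-sided, the smallest that 3 arrays against 3 allow). Msmo1, the methylsterol monooxygenase, was at 8.90, 9.14 and 9.26 after sevoflurane and at 8.995, 8.95 and 8.95 in controls. Nsdhl, a dehydrogenase of the same demethylation, was at 6.69, 7.05 and 7.13 after sevoflurane and at 6.95, 6.78 and 6.86 in controls. In both genes sevoflurane replicates 2 and 3 were the highest of the 6 arrays and sevoflurane replicate 1 was the lowest. The lanosterol demethylase Cyp51 had the same order, with 8.47, 8.72 and 8.81 on the sevoflurane arrays and 8.66, 8.49 and 8.61 on the control arrays. The platform lists a pseudogene copy of it apart, Cyp51a1-ps1, and shared hybridisation was not tested. The log2 fold changes of Msmo1, Nsdhl and Cyp51 were 0.13, 0.09 and 0.08. The sterol reductase Tm7sf2 was at 0.05, the reductase Hsd17b7 at -0.05 and the isomerase Ebp at -0.07. Without sevoflurane replicate 1 the values of Tm7sf2, Hsd17b7 and Ebp were -0.02, -0.003 and 0.03. Dhcr7, which makes cholesterol in the last step of one branch, was among the steadiest members, with a log2 fold change of -0.02 and a span of 0.09 over the 6 arrays.

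**Figure D2:**
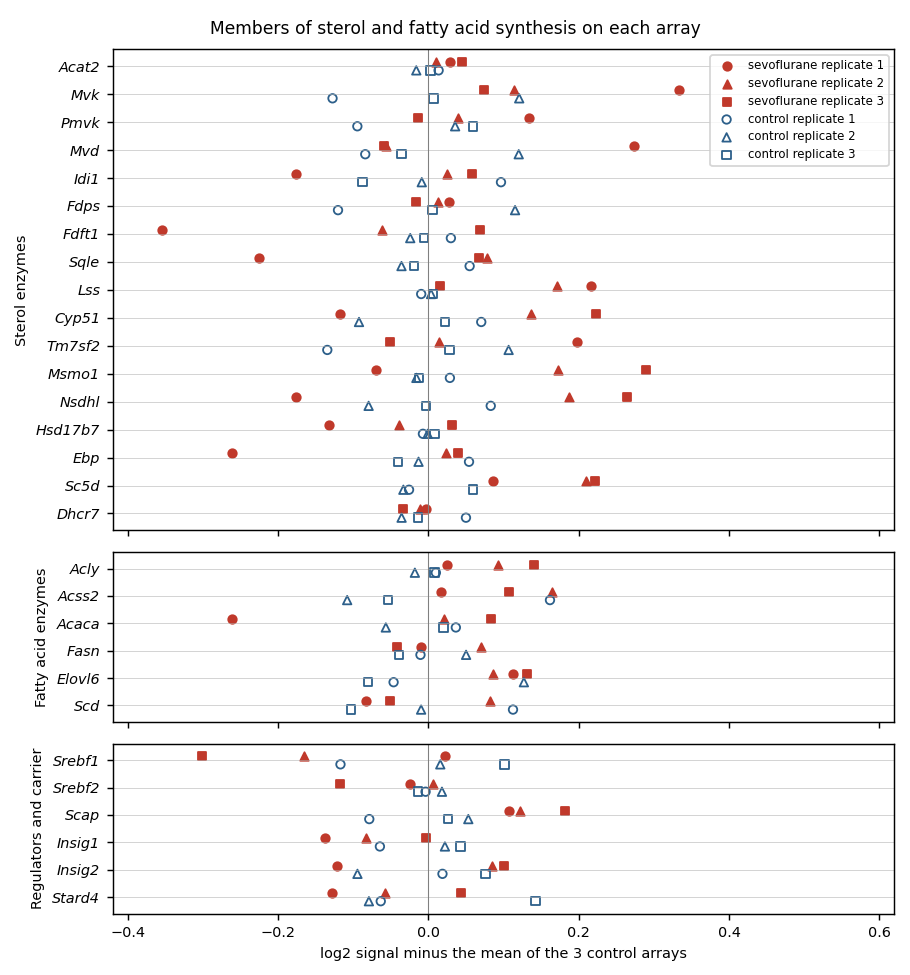
Log2 signal of each member on each array, minus the mean of its 3 control arrays, in pathway order from top to bottom. Sevoflurane replicate 1 (filled circles) is at the right end for Mvk, Pmvk, Mvd, Lss and Tm7sf2 and at the left end for 12 other members, 8 of them sterol enzymes.

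The sterol enzymes thus fell on both sides on the array that stood apart. Sevoflurane replicate 1 was the highest of the 6 arrays in 5 of the 17 (Mvk, Pmvk, Mvd, Lss and Tm7sf2) and the lowest in 8 (Idi1, Fdft1, Sqle, Cyp51, Msmo1, Nsdhl, Hsd17b7 and Ebp). Over all genes it was the highest in 44.7% and the lowest in 24.5%. Control replicate 1 was the lowest array in each of those 5 genes, against 37.2% of the genes in which sevoflurane replicate 1 was highest, and it lay above control replicate 2 in 7 of those 8, against 80.3% of the genes in which sevoflurane replicate 1 was lowest.

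Without sevoflurane replicate 1 the sterol enzymes Msmo1 and Sc5d passed an unadjusted p under 0.05. The log2 fold change was 0.23 with a standard error of 0.0934 for Msmo1 (unadjusted p = 0.0399 from limma) and 0.22 with a standard error of 0.0918 for Sc5d (unadjusted p = 0.0481 from limma), and the adjusted p of both was 0.794. These 2 of 29 members stand beside 2.77% of all genes that passed as higher in that fit, and 0 members stand beside 1.84% that passed as lower. Nsdhl, at 0.23 (unadjusted p = 0.0521 from limma), and Cyp51, at 0.18 (unadjusted p = 0.109 from limma), came next among the sterol enzymes. On sevoflurane replicates 2 and 3, 9 members lay above every control array (Sqle, Lss, Cyp51, Msmo1, Nsdhl, Sc5d, Acly, Scap and Insig2) and 1 below (Srebf1), against 16.6% and 11% of all genes. The median of the sterol enzymes in this fit was 0.03, against -0.003 over all genes and -0.04 over all probe sets. Of the 29 members 20 were positive, where 49.3% of all genes were. The genes behind these shares were not matched to the members for signal level.

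**Figure D3:**
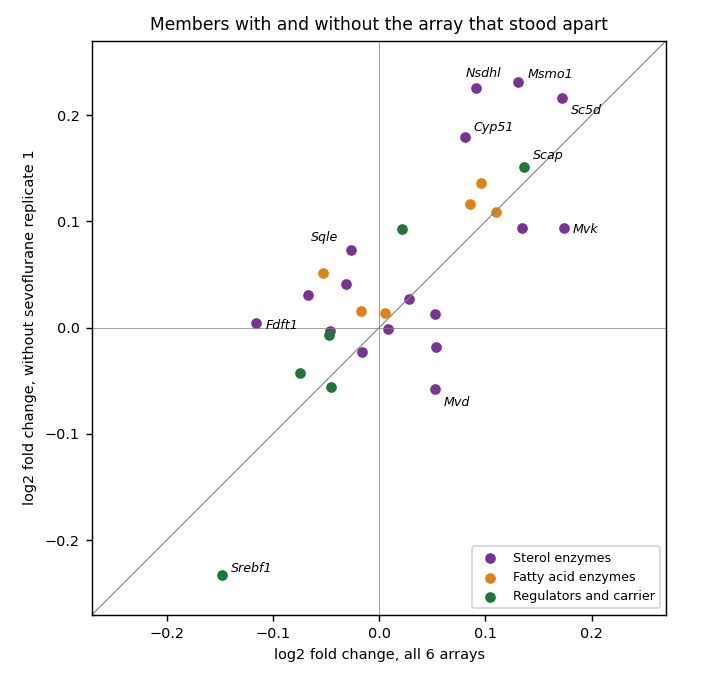
Log2 fold change of each member with all 6 arrays (x axis) and without sevoflurane replicate 1 (y axis), where the line marks equal values. Msmo1, Nsdhl, Cyp51 and Sc5d lie above the line at 0.18 to 0.23 on the y axis, and Srebf1 lies lowest at -0.23.

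Of the fatty acid enzymes, Acly, the ATP citrate lyase that supplies cytosolic acetyl-CoA, was at 8.64, 8.71 and 8.75 on the sevoflurane arrays and at 8.62, 8.59 and 8.62 on the control arrays. These values did not overlap, but the lowest sevoflurane array was only just above the highest control array, and the log2 fold change was 0.09 (unadjusted p = 0.415 from limma). Acss2, which makes acetyl-CoA from acetate, was at 0.10. Acaca, the acetyl-CoA carboxylase that makes malonyl-CoA in the rate-limiting step, was at 8.07, 8.35 and 8.42 after sevoflurane and at 8.37, 8.28 and 8.35 in controls, and again sevoflurane replicate 1 was the lowest array. Its log2 fold change was -0.05 with all arrays and 0.05 without that one. Fasn, the fatty acid synthase, was among the members nearest to 0, with 8.97, 9.05 and 8.94 after sevoflurane and 8.97, 9.03 and 8.94 in controls (log2 fold change 0.01, standard error 0.102). The elongase Elovl6 was read by 3 probe sets with log2 fold changes of 0.11, -0.02 and 0.02, of which the first stood for the gene. The name of that probe set marks it as unmapped. With either of the others the median of the fatty acid enzymes would lie below the 0.02 over all genes, so its place above that value rests on the unmapped probe set. The desaturase Scd, which has the close paralog Scd2, was at -0.02.

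Of the regulators, Scap did not overlap between the groups. It was at 8.92, 8.93 and 8.99 on the sevoflurane arrays and at 8.73, 8.86 and 8.84 on the control arrays, a log2 fold change of 0.14 with a standard error of 0.102 (unadjusted p = 0.217 from limma). With Lss, Sc5d and Acly this made 4 of 29 members that lay above every control array on all 3 sevoflurane arrays, against 4.93% of all genes, and 0 members that lay below, against 1.34%. Srebf1, the gene of the SREBP that favours fatty acid synthesis, had the most negative value, with 7.52, 7.33 and 7.20 after sevoflurane and 7.38, 7.51 and 7.60 in controls. The groups overlapped, and the log2 fold change was -0.15 (standard error 0.125, unadjusted p = 0.267 from limma), or -0.23 (unadjusted p = 0.0633 from limma) without sevoflurane replicate 1. Srebf2, whose product favours cholesterol synthesis, was at 9.06, 9.09 and 8.97 after sevoflurane and at 9.08, 9.10 and 9.07 in controls, a log2 fold change of -0.05 (standard error 0.101). The retention proteins overlapped between the groups. Insig1, itself a target of SREBP, was at 7.62, 7.67 and 7.75 in the sevoflurane group and at 7.69, 7.78 and 7.80 in the control group (log2 fold change -0.07, standard error 0.103), and Insig2 was at 7.51, 7.72 and 7.74 in the sevoflurane group and at 7.65, 7.54 and 7.71 in the control group (log2 fold change 0.02, standard error 0.114). The sterol carrier Stard4 was at 6.88, 6.95 and 7.05 in the sevoflurane group and at 6.94, 6.93 and 7.15 in the control group, a log2 fold change of -0.05 (standard error 0.114).

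**Figure D4:**
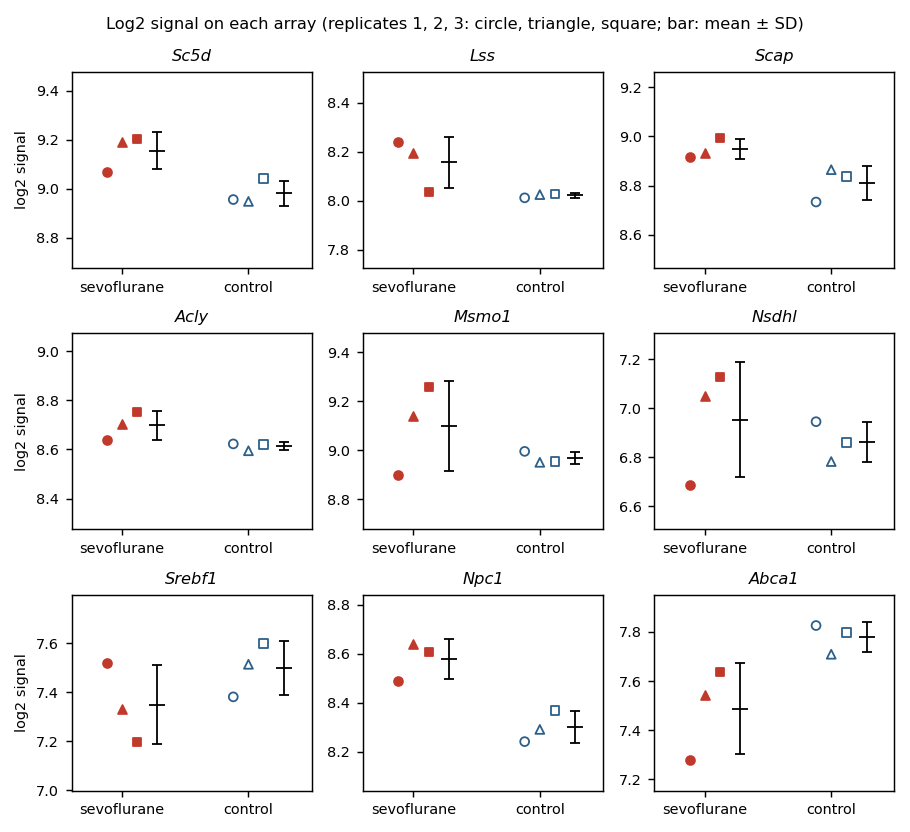
Log2 signal on the 3 sevoflurane arrays (left, filled) and the 3 control arrays (right, open) for 7 members and for Npc1 and Abca1, with the mean and SD of each group beside its points. Every panel spans the same range of 0.8 on the log2 scale, and the groups do not overlap for Sc5d, Lss, Scap, Acly, Npc1 and Abca1.

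In the 5 lists of genes around these members, Npc1 and Abca1 had an unadjusted p under 0.05 from limma, where 1.1% of all genes passed as higher and 0.222% as lower. Npc1, which carries cholesterol out of lysosomes, was at 8.49, 8.64 and 8.61 on the sevoflurane arrays and at 8.24, 8.29 and 8.37 on the control arrays. It was higher on every sevoflurane array, with a log2 fold change of 0.28 and a standard error of 0.106 (unadjusted p = 0.0288 and adjusted p = 1 from limma), and was the 1 gene of 12 in the list of sterol uptake and transport that passed. It passed without sevoflurane replicate 1 (unadjusted p = 0.00942) and stayed higher with any one array left out, but the call was lost when that array was sevoflurane replicate 2 (unadjusted p = 0.101), sevoflurane replicate 3 (unadjusted p = 0.0692), control replicate 1 (unadjusted p = 0.0957), control replicate 2 (unadjusted p = 0.0790) or control replicate 3 (unadjusted p = 0.0532), all from limma. Stard3, which passes sterol from late endosomes to other membranes, also lay above the controls on every sevoflurane array, at 0.13 (unadjusted p = 0.224 from limma), and the lysosomal carrier Npc2, whose groups overlapped, was at 0.19. Of the 12 genes in this list 9 were positive and 3 negative, and the median was 0.06, against 0.02 over all genes.

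Abca1, the transporter that loads cholesterol onto apolipoproteins and a target of the sterol-sensing LXR receptors, was at 7.28, 7.54 and 7.64 after sevoflurane and at 7.83, 7.71 and 7.80 in controls. It was lower on every sevoflurane array, with a log2 fold change of -0.29 and a standard error of 0.125 (unadjusted p = 0.0464 and adjusted p = 1 from limma). Sevoflurane replicate 1 was the lowest, and without it the value was -0.19 (unadjusted p = 0.0879 from limma). Without sevoflurane replicate 2 or a control array the p was between 0.0680 and 0.121, and it was 0.0267 without sevoflurane replicate 3. Abca1 was the 1 gene of 15 in the list of sterol efflux and turnover that passed, and its family member Abcg1 lay on the other side at 0.08, above the controls on every sevoflurane array. In that list 11 genes were positive and 4 negative, where 62.5% of all genes were positive. Its median was 0.07, against 0.02 over all genes. Next in rank were Clu at 0.13, without overlap, and Ch25h at 0.15, with overlap (unadjusted p = 0.255 and 0.306 from limma). Cyp46a1, the neuronal hydroxylase through which the brain disposes of cholesterol, was at -0.14 (unadjusted p = 0.324 from limma).

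None of 6 further genes of sterol and isoprenoid synthesis, 11 genes of SREBP processing and 28 further genes of fatty acid synthesis passed an unadjusted p under 0.05 from limma. Their medians were 0.04, -0.01 and 0.03, against 0.02 over all genes. The elongase Elovl1, of very long chains, came closest. Its log2 signal was 8.50, 8.38 and 8.44 after sevoflurane and 8.03, 8.10 and 8.37 in controls, a log2 fold change of 0.27 with a standard error of 0.122 (unadjusted p = 0.0543 from limma). The groups did not overlap, with sevoflurane replicate 2 and control replicate 3 side by side, and without control replicate 3 the value was 0.37 (unadjusted p = 0.0253 from limma). Thrsp, a nuclear protein that favours fat synthesis, was at 0.16 and Scd2, the main stearoyl-CoA desaturase of mouse brain, at 0.10, both without overlap. Mid1ip1 lay below the controls on every sevoflurane array, at -0.05. Of these 28 genes 3 lay higher without overlap and 1 lower, against 4.93% and 1.34% of all genes. The list of sterol uptake and transport had 2 higher and 0 lower, and that of sterol efflux and turnover 2 higher and 1 lower.

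**Figure D5:**
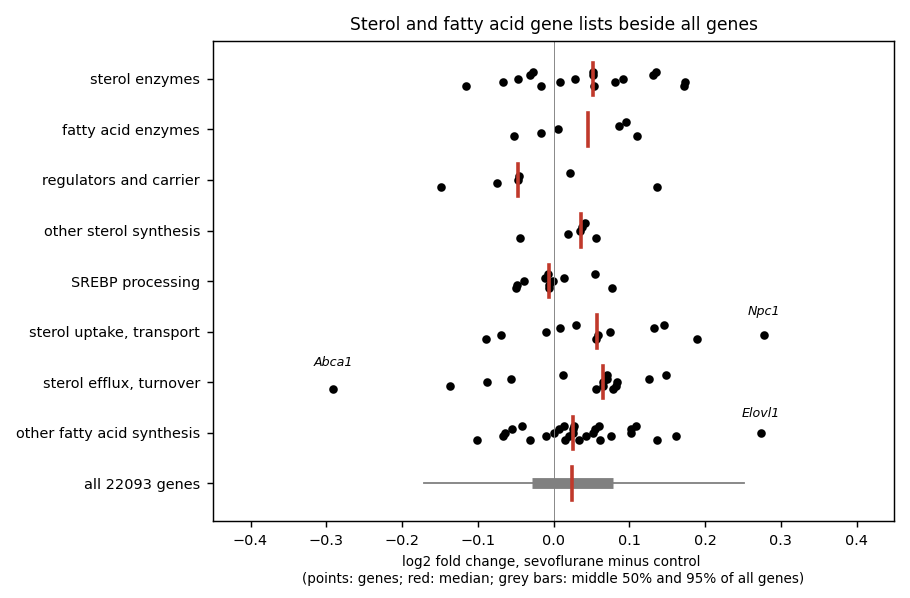
Log2 fold changes, sevoflurane minus control, of the genes in the 3 groups of members and in 5 lists around them (points), with medians in red, above the middle 50% and 95% of all genes in grey. The points of the members lie between -0.15 and 0.17, while Npc1, Elovl1 and Abca1 lie farthest out at 0.28, 0.27 and -0.29.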

How the data were processed

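The values are log2 signals that the authors had normalized before they deposited them, and no scanner file was used here. RMA, MAS5 and Affymetrix Expression Console 1.4.1 stand in the submitters' processing notes, without a role for each. Medians and spreads still differed between arrays, which bears on how often an array is highest or lowest. Of 70580 probe sets, 1738 controls were left out and 68842 were tested with the two-sided moderated test of limma 3.58.1 (R 4.3.3), with Benjamini-Hochberg adjustment over all of them. A single symbol was given for 23446 probe sets, several for 505 and none for 44891. Signals of different probe sets were not set against each other. The p-values rest on the spread between 3 rats a group, which limma draws toward a value shared over all probe sets. No pair of arrays held identical values.

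The members and lists were chosen with earlier results of these data known. Values on every array are given for members whose groups did not overlap, for rate-limiting steps, for Fasn and for the regulators, and also, chosen after their values were seen, for Acat2, Mvk, Fdft1, Cyp51, Msmo1 and Nsdhl. In the lists around them the genes with an unadjusted p under 0.05 are named with up to 2 next in rank. Stard3, Abcg1, Cyp46a1, Scd2 and Mid1ip1 were added after their values were seen. Alternatives were the methods' one-way ANOVA, an intensity trend with a robust prior, array weights, the replicate number as a block, quantile normalization, removal of probe sets with a mean at background, median centring of each array, averaging a gene's probe sets and leaving out each array. Promoters came from RefSeq (GRCr8). The build of the array's own positions is not given in the sources used here. Figures were drawn with matplotlib 3.10.9.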

Additional observations from a re-analysis of the deposited data

How the results depend on the processing

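The count of members at an unadjusted p under 0.05, 0 in the reported fit, was 2 with the methods' one-way ANOVA (Sc5d and Scap, both higher, beside 2.49% of all genes), 4 with array weights (Msmo1, Nsdhl and Sc5d higher and Srebf1 lower, beside 5.65% and 4.46% of all genes) and between 0 and 2 with 1 array left out, where 2 came without sevoflurane replicate 1. It was 0 in the other alternatives, and no member passed after adjustment in any of them, the smallest adjusted p being 0.296 with array weights. With 1 array left out the median of the sterol enzymes lay between 0.0105, without control replicate 1, and 0.0516, without control replicate 2, and those of the fatty acid enzymes and regulators stayed within the spread between arrays. Npc1 did not pass with centring on the median (unadjusted p = 0.0657) and Abca1 did not pass with it (unadjusted p = 0.108) or with the methods' one-way ANOVA (unadjusted p = 0.0615). Calls were gained for Elovl1 with an intensity trend and robust prior (unadjusted p = 0.0345) and for Thrsp (unadjusted p = 0.0254) and Stard3 (unadjusted p = 0.0315) with the methods' one-way ANOVA. Over all probe sets the count at an unadjusted p under 0.05, 1108 as reported, was 1735 with the methods' one-way ANOVA, 9566 with array weights, 2096 with quantile normalization, 490 with the replicate block, 4138 and 2321 without sevoflurane replicates 1 and 3, and 624 and 627 without control replicates 1 and 3. Same-numbered arrays deviated from their group means with r of -0.59, -0.29 and 0.03 across probe sets. Because the arrays also differed in scale, these values cannot show whether the replicate numbers pair the rats. With the replicate block 0 members passed, and Npc1 (unadjusted p = 0.0911) and Abca1 (unadjusted p = 0.104) did not. In the reported limma fit a member needed a log2 difference of 0.22 to 0.32 to pass, and the ANOVA and array weights passed smaller ones.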
